A study of Mus musculus with 6 samples.

Results

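The 10 genes described here encode the digestive serine endopeptidases of the mouse exocrine pancreas: the trypsinogens Prss1, Prss2, Try4 and Try5, the chymotrypsin-type proteases Ctrb1, Ctrc and Ctrl, and the pancreatic elastases Cela1, Cela2a and Cela3b. They were chosen by symbol, and each of the 10 was found among the 37761 genes of the deposited table. RNA was sequenced from whole embryonic pancreas dissected at e15.5 (3 libraries) and from islets of 12-week-old adults obtained with collagenase (3 libraries). Every sample was labelled wild type, no treatment or strain was named, and no transgene was involved. Whether each library stands for a different animal, litter or pool was not labelled, so p-values here measure library-to-library spread alone, and that spread may be technical. Because tissue and age changed at once, their parts cannot be told apart.

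Acinar cells make these enzymes as inactive zymogens, store them in granules and release them into the duct. In the intestine enteropeptidase cuts the activation peptide off trypsinogen, and trypsin then activates the chymotrypsinogens, the proelastases and further trypsinogen. Islets are endocrine tissue and do not make digestive proteases as part of their hormone programme, while the embryonic pancreas at this stage holds differentiating acinar cells among mesenchyme, ducts and early endocrine cells.

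The libraries held 35059950 to 47346870 reads assigned to genes. Islet markers (Ins1, Ins2, Gcg, Sst and 8 other genes) made up 11.4% to 12.4% of the assigned reads of each islet library and 0.115% to 0.186% at e15.5, and 12 of 12 were called higher in islets. Mesenchyme markers made up 0.525% to 0.657% in the embryonic libraries and 0.00599% to 0.0135% in islets, and 12 of 12 were called lower. Duct markers split (3 higher, 6 lower, 1 not called), as did endothelial markers (1 higher, 4 lower, 5 not called) and immune markers (2 higher, 7 lower, 1 not called). Over all genes tested, 36.2% were called higher and 36.6% lower. Acinar RNA was present in the islet libraries in unequal amounts: 17 acinar lipases, amylases, carboxypeptidases and other digestive enzymes outside the family summed to 0.625%, 1.27% and 0.475% of assigned reads in islet libraries 1, 2 and 3. The same 17 genes summed to 0.680%, 0.778% and 0.604% in the embryonic libraries. The levels below are therefore given library by library.

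The trypsinogen genes are near copies of each other, which bears on how their reads could be placed. In the mm10 build (GRCm38, GENCODE M21), Try4 lies at chr6:41302269-41305532 on the forward strand and Try5 at chr6:41311233-41316841 on the reverse strand. Prss1 (chr6:41458932-41463786) and Prss2 (chr6:41521787-41525079) follow on the forward strand of the same chromosome. The coding sequences of Try4 and Try5 were 97.4% identical, those of Prss1 and Prss2 89.6%, and those of Prss1 and Gm5771, from the same region, 98.0%. The stretch over the activation peptide and the start of the mature enzyme shows this closeness. It covers bases 40 to 99 of the coding sequence (43 to 102 in 2210010C04Rik, a further trypsinogen-like gene), read from GENCODE transcripts, and capitals mark bases that differ from Prss2.
Prss2: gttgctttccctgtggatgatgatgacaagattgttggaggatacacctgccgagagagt
Prss1: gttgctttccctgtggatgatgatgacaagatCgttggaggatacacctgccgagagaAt
Try4: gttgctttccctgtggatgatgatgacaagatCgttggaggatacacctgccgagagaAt
Try5: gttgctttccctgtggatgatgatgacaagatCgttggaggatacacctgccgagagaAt
Gm10334: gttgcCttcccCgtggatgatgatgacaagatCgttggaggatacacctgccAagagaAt
2210010C04Rik: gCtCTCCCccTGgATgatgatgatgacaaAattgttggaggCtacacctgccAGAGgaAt
Prss1, Try4 and Try5 had the same letters over these 60 bases, with 2 differences from Prss2. Gm10334 had 5 and 2210010C04Rik had 17. Of all 50-base windows of the transcript, 34.4% were found in no other gene for Try4, 45.1% for Prss1, 52.4% for Try5 and 92.2% for Prss2. Ctrb1, Ctrl and Cela1 shared no window with another gene. Cela3b had 80.8%, with its other windows shared with Cela3a, while Ctrc (82.3%) and Cela2a (84.4%) overlap on chromosome 4. Of each of these genes, 305 exonic bases are overlapped by the other or by Casp9. Ctrc is annotated as protein coding in GENCODE and as a transcribed pseudogene in RefSeq. The values of Prss1, Try4, Try5 and Cela3b are uncertain to that extent, since 14.5% to 21.7% of reads in a library were recorded as not uniquely aligned. For Ctrc and Cela2a the doubt concerns reads over the overlapped bases, and 2.38% to 4.07% of reads in a library were recorded as ambiguous. Neither share is known for a single gene.

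Islet libraries carried more RNA of 8 of the 10 proteases than embryonic pancreas, and less of Prss1 and Ctrc. By the means, the 8 rose from 3.10-fold (Ctrb1) to 1054-fold (Try4). In normalized counts, the authors' read counts divided by one size factor per library, the groups did not overlap for any of the 10. Of the 21653 genes tested, 36.2% were called higher in islets and 36.6% lower, 72.8% in either direction, at an adjusted p below 0.05 in limma-trend with Benjamini-Hochberg adjustment over all of them. Groups did not overlap for 77.1% of genes tested, so a call in itself was common. The median log2 fold change (islets over embryonic pancreas, on log2 of normalized count plus 1) was 5.70 over the 10 proteases and -0.03 over all genes tested. In bulk tissue, fewer cells of a type and less RNA per cell cannot be told apart.

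**Figure D1:**
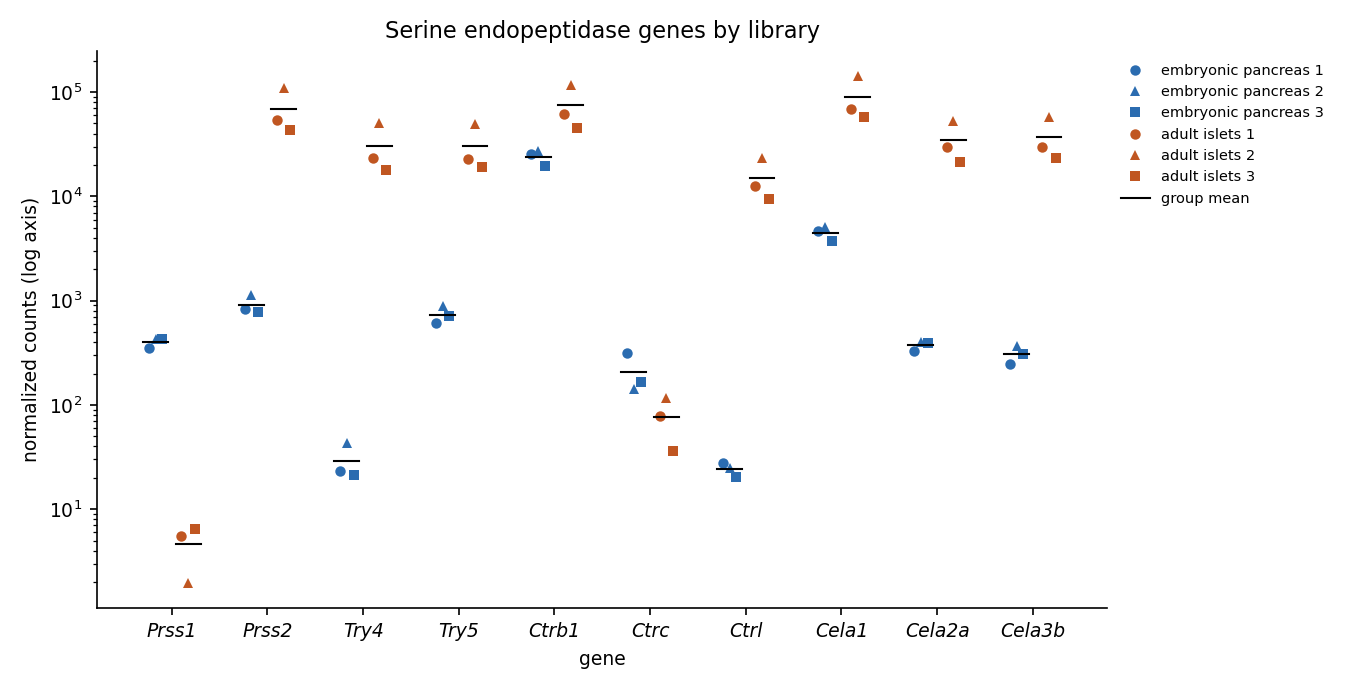
Normalized counts (log axis) of the 10 proteases in each of the 3 embryonic pancreas and 3 adult islet libraries, with bars at the group means. For 8 genes the islet points lie above the embryonic ones, for Prss1 and Ctrc they lie below, and islet library 2 is the highest islet library for every gene except Prss1.

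Prss2, which encodes an anionic trypsinogen, had 836, 1122 and 778 normalized counts at e15.5 and 53598, 108219 and 43652 in adult islets. Every islet library was far above every embryonic one, and islet library 2 was about double the other two. The means were 912 ± 184 and 68489.8 ± 34764 (SD, n = 3 each), a ratio of 75.1. The log2 fold change was 6.13 (SE 0.30, limma-trend adjusted p = 2.43e-07).

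Try4 was close to absent from embryonic pancreas and abundant in islet libraries. Its values were 23.1, 42.8 and 21.3 in embryonic pancreas and 23570.4, 50142 and 18064 in islets. That is a 1054-fold ratio of means, the widest among the 10, with a log2 fold change of 9.92 (SE 0.38, limma-trend adjusted p = 5.84e-08). Try5, its nearest copy, started from a higher embryonic level: 605, 883 and 709.8, against 22956, 49895 and 18997 in islets. The ratio for Try5 was 41.8 and the log2 fold change was 5.27 (SE 0.32, limma-trend adjusted p = 8.41e-07). Per kb of exon, Try4 and Try5 stood at similar levels in islets (38192 ± 21415 and 33942 ± 18639 normalized counts per kb) and far apart in embryonic pancreas (36.2 ± 14.9 and 812 ± 155, SD, n = 3 each). These levels were not corrected for the windows that each gene shares with others.

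Prss1 went the opposite way to Prss2, Try4 and Try5. It had 351, 428 and 427 normalized counts in embryonic pancreas and 5.49, 1.98 and 6.44 in islets, which stand for 5, 2 and 6 reads. The log2 fold change was -6.26 (SE 0.36, 95% interval -7.08 to -5.43, limma-trend adjusted p = 6.35e-07). From the pooled reads, 1297 and 13, the embryonic level was 88.3 times that of islets, with an exact interval of 51.4 to 166 that covers counting error only. Prss1 was also the one protease that was not highest in islet library 2, on 13 reads in all.

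Chymotrypsinogen B, the product of Ctrb1 (chr8:111686519-111691010, reverse strand), was already abundant at e15.5. Ctrb1 had 25283, 27368 and 19409 normalized counts in embryonic pancreas and 61405, 117250.1 and 44765 in islets, 3.10-fold more by the means. All 3 islet libraries were above the embryonic ones, but by the smallest step of the 8 genes that rose: the log2 fold change was 1.53 (SE 0.32, limma-trend adjusted p = 0.00207). Ctrl, the chymotrypsin-like protease (chr8:105932003-105933862, reverse strand), was the opposite case within the same family. Its embryonic values were 27.9, 25.0 and 20.4 and its islet values 12467, 23441 and 9361, a ratio of 617 and a log2 fold change of 9.11 (SE 0.30, limma-trend adjusted p = 2.73e-08).

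Ctrc, chymotrypsin C, an enzyme known to degrade trypsinogen, was low in both groups. It had 317, 143 and 167 normalized counts in embryonic pancreas and 79.1, 116 and 36.5 in islets. The groups did not overlap, yet the nearest values, 143 and 116, were close. The log2 fold change was -1.48 (SE 0.44, 95% interval -2.49 to -0.48, limma-trend adjusted p = 0.0137). Without embryonic library 1, the highest, it was -1.14 and was no longer called (limma-trend adjusted p = 0.0601).

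All 3 elastase genes rose. Cela1 (chr15:100674421-100687921, reverse strand) had 4621, 5106 and 3702 normalized counts in embryonic pancreas and 69285, 142376 and 58090.0 in islets, 20.1-fold more by the means. For Cela1 the log2 fold change was 4.23 with an SE of 0.30, at a limma-trend adjusted p of 2.26e-06. Cela2a (chr4:141814962-141826160, reverse strand) had 328, 404 and 395 against 29815, 52694 and 21155, a ratio of 92.0 and a log2 fold change of 6.42 (SE 0.28). Cela3b (chr4:137420999-137430540, reverse strand) had 248, 369 and 311 against 29782, 57619 and 23162, a ratio of 119 and a log2 fold change of 6.80 (SE 0.30). The limma-trend adjusted p was 1.22e-07 for Cela2a and 1.29e-07 for Cela3b. Per kb of exon, Cela2a and Cela3b stood close together in embryonic pancreas (218 ± 24.2 and 186 ± 36.5 normalized counts per kb, SD, n = 3), where Cela1 was at 1941 ± 309.

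**Figure D2:**
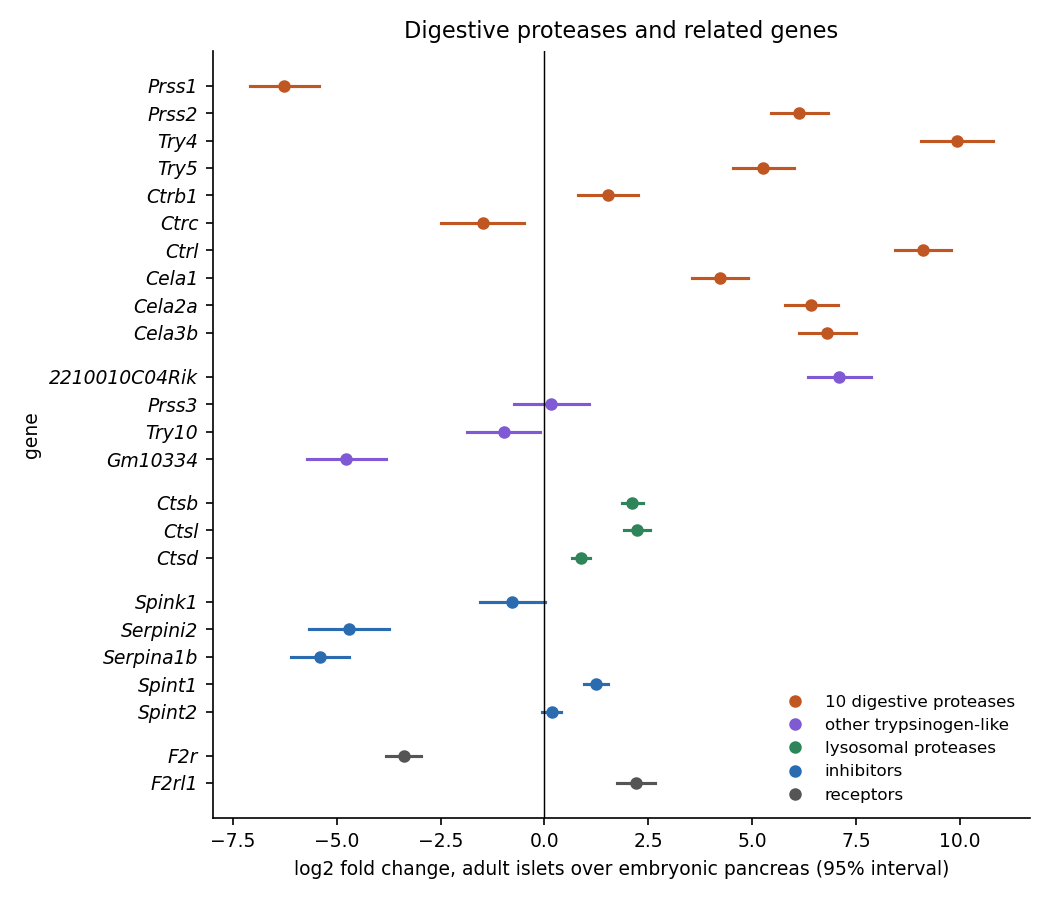
Log2 fold change of adult islets over embryonic pancreas (limma-trend, log2 of normalized count plus 1) for the 10 proteases and, below them, for other trypsinogen-like genes, lysosomal proteases, inhibitors and receptors described further on, with lines for 95% intervals. Among the 10, the 8 positive values run from 1.53 (Ctrb1) to 9.92 (Try4), and Ctrc (-1.48) and Prss1 (-6.26) lie below 0.

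In the authors' deposited table, each of the 10 had an adjusted p below 0.05, as did 53.3% of the 30597 genes given one there. The log2 fold changes in the authors' deposited table were -6.46 for Prss1, -1.43 for Ctrc and 1.63 to 10.05 for the other 8.

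Within the family the mix changed as well as the amount. Levels of different genes were compared as normalized counts per kb of exon. That length was not corrected for windows shared with other genes. Only 34.4% of windows were found in no other gene for Try4, 45.1% for Prss1 and 52.4% for Try5, against 100% for Ctrb1 and Cela1. The shares and the order of the genes are uncertain to that extent. In embryonic pancreas Ctrb1 supplied 84.5% ± 1.31 of the summed level of the 10 genes per kb (SD, n = 3), Cela1 6.01%, Prss2 3.46%, Try5 2.54% and Prss1 1.58%, and each of the other 5 under 1%. In islets Ctrb1 supplied 25.3% ± 0.852 and Prss2 25.1% ± 0.582, followed by Cela1 at 11.7%, Try4 at 11.2% and Try5 at 10.03%. Cela3b, Cela2a and Ctrl then held 6.64%, 6.05% and 3.92%. Prss1 and Ctrc fell to 0.00229% and 0.0161%. The Prss2 share was 24.7%, 25.0% and 25.8% in the islet libraries. The Prss1 share varied more, at 0.00256%, 0.000464% and 0.00385%, as did that of Ctrc, at 0.0208%, 0.0153% and 0.0123%.

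The order per kb in embryonic pancreas was Ctrb1, Cela1, Prss2, Try5, Prss1, Cela2a, Cela3b, Ctrc, Try4 and Ctrl. Prss2 and Try5 overlapped in range, as did Cela2a with Cela3b and Cela3b with Ctrc. The other neighbours did not. Within single embryonic libraries, Prss2 stood above Try5 and Cela2a above Cela3b in all 3, and Cela3b above Ctrc in 2. In islets the order was Ctrb1, Prss2, Cela1, Try4, Try5, Cela3b, Cela2a and Ctrl, with overlapping ranges for each neighbouring pair. Within single libraries, Prss2 stood above Cela1 in all 3, and the order from Try4 through Ctrl also held in all 3. Ctrb1 stood above Prss2 in 2 islet libraries, as did Cela1 above Try4. Ctrc and then Prss1 followed below, each without overlap with the gene above it. Neither order was corrected for windows shared with other genes.

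**Figure D3:**
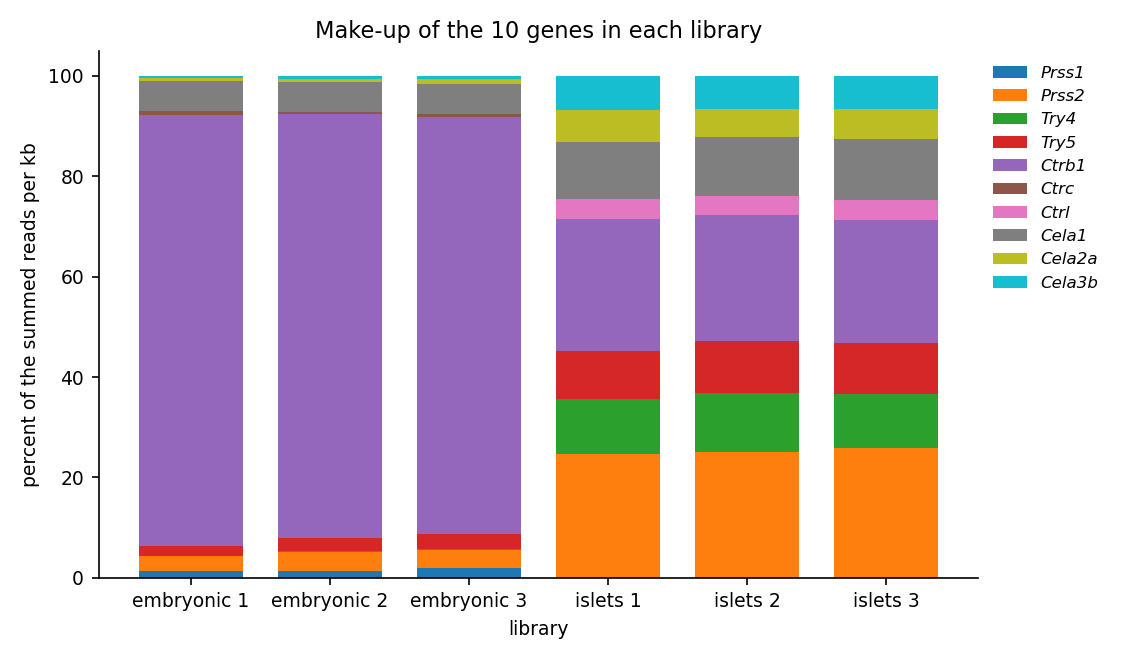
Share of each protease in the summed level of the 10 genes per kb of exon, in percent, for each library. Exon lengths were not corrected for windows shared with other genes. Ctrb1 fills 83.2% to 85.8% of the embryonic columns and 24.6% to 26.2% of the islet columns, where Prss2, Cela1, Try4 and Try5 take most of the rest.

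The 10 proteases summed to 0.0969%, 0.0948% and 0.0799% of assigned reads in embryonic pancreas and to 0.657%, 1.28% and 0.487% in islets. Islet library 2 stood apart from libraries 1 and 3. The median ratio of library 2 to the mean of the other two was 2.19 over the 10 proteases (range 0.333 for Prss1 to 2.41 for Try4), and 9 of the 10 were highest there, as were 28.6% of all genes tested. The other acinar enzymes had a median ratio of 2.26 and were highest there in 16 of 17 cases. Zymogen granule proteins that are not proteases (Gp2, Zg16, Sycn, Cuzd1 and Dmbt1) had a median of 2.57, in 5 of 5. Acinar transcription factors with an islet mean of at least 10 normalized counts had a median of 2.08, with 4 of 6 highest there and the lowest ratio at 0.866. Duct markers had a median of 1.34, with 6 of 10 highest there. Islet markers had a median of 0.903 and mesenchyme markers 0.889. The levels of 9 of the 10 proteases in the islet libraries moved with those of most acinar enzymes and granule proteins, and in part with duct markers. The part that carry-over of acinar cells in the islet preparations or of duct cells has in the difference between the groups was not tested.

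**Figure D4:**
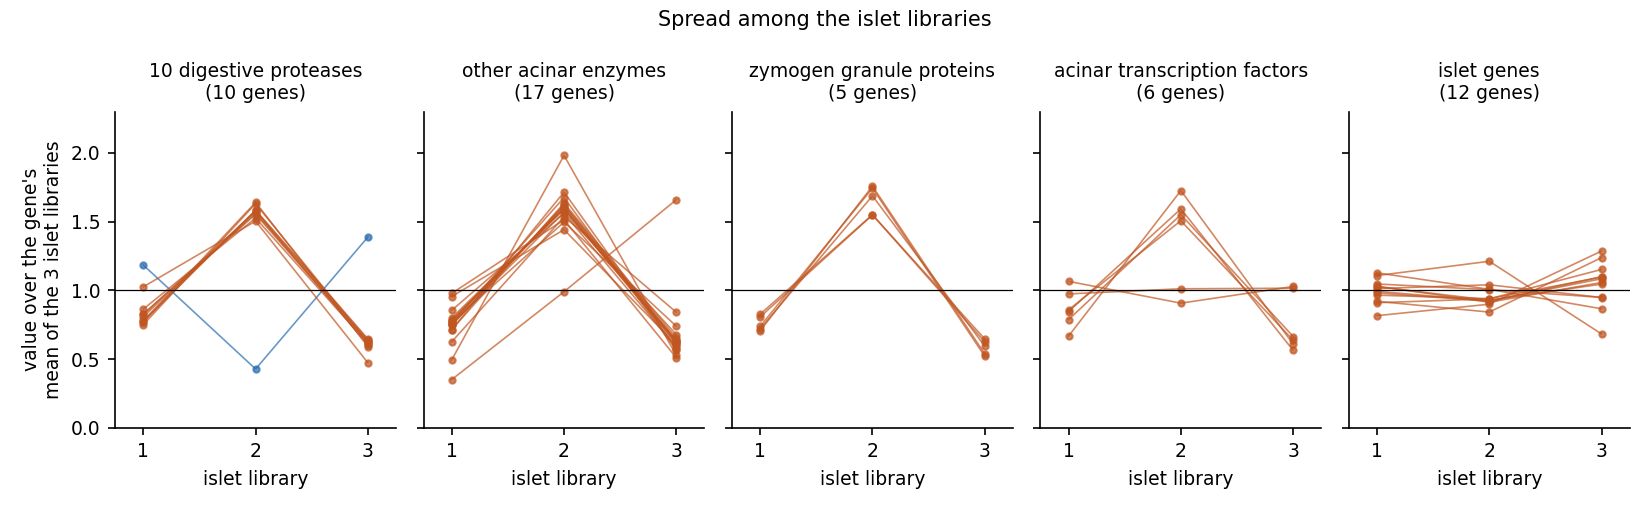
Each gene in each adult islet library divided by its mean over the 3 islet libraries, for the 10 proteases (Prss1 in blue) and for other gene lists, limited to genes with an islet mean of at least 10 normalized counts outside the proteases. In library 2, 9 of the 10 proteases, 16 of 17 acinar enzymes and 5 of 5 granule proteins are at their highest, against 2 of 12 islet markers.

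Dividing by the summed other acinar enzymes of the same library narrowed the spread between islet libraries for 9 of the 10 proteases, and widened it for Prss1, which rests on 13 islet reads. The summed 10 proteases were 0.143, 0.122 and 0.132 of that sum in embryonic pancreas and 1.05, 1.01 and 1.02 in islets, a 7.78-fold difference of means. The highest islet library exceeded the lowest 1.04-fold on this scale and 2.54-fold in normalized counts. Ctrb1 differed 1.99-fold on this scale (0.101 against 0.201) and Cela1 12.9-fold (0.0188 against 0.243). Try5, Prss2, Cela2a and Cela3b differed 26.5-, 48.7-, 58.8- and 76.5-fold, and Ctrl and Try4 396- and 688-fold. Prss1 and Ctrc remained lower in islets, at 0.00972 and 0.230 of their embryonic ratio. The reference is itself mixed, with 12 of its 17 genes called higher, 4 lower and 1 not called. With the granule proteins as reference, all 5 of which were called higher (median log2 fold change 9.01), the direction turned: the summed proteases were 353 times that reference in embryonic pancreas and 11.4 times in islets. On that scale only Try4 (2.74-fold) and Ctrl (1.66-fold) stayed higher in islets. The embryonic level of the granule proteins rests on few reads: 191 of Sycn, 62 of Dmbt1, 20 of Gp2, 9 of Zg16 and 6 of Cuzd1 over the embryonic libraries.

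**Figure D5:**
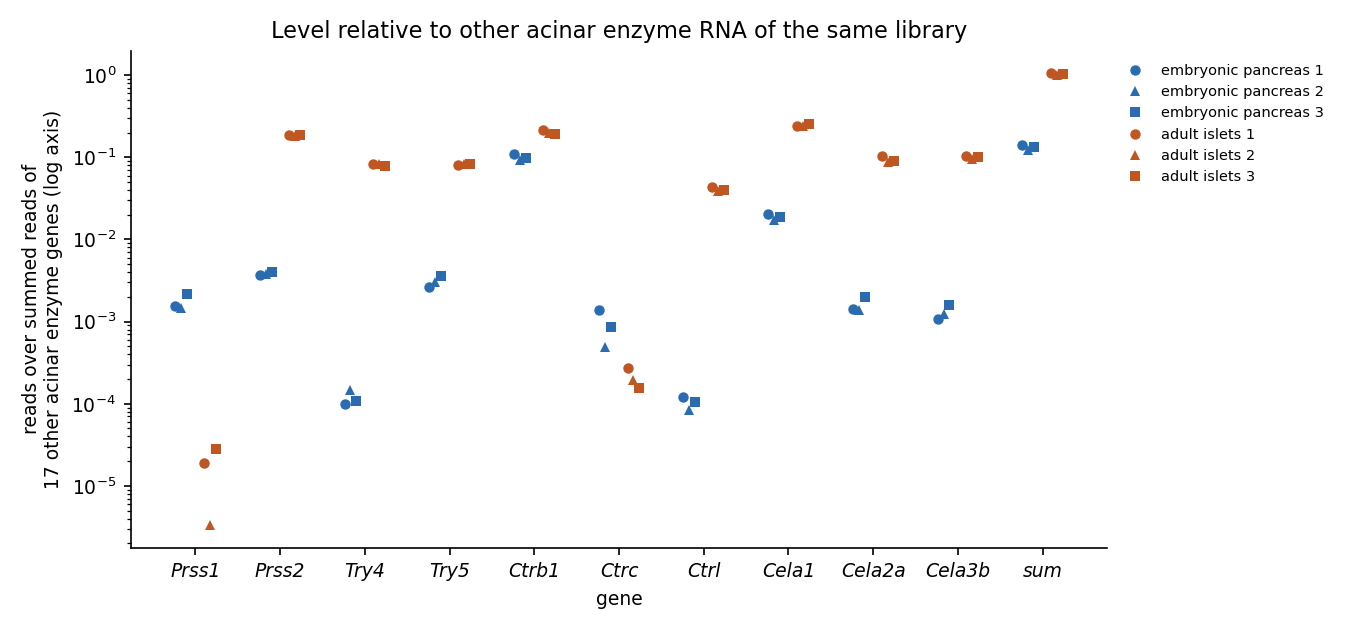
Ratio of each protease, and of the 10 summed, to the summed other acinar enzymes of the same library (log axis), with embryonic pancreas and adult islet libraries side by side. The summed ratio is 0.122 to 0.143 in embryonic pancreas and 1.01 to 1.05 in islets, and the islet points of a gene lie close together except for Prss1 and Ctrc.

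Promoter sequence was set beside these patterns because the acinar factor complex built on Ptf1a and Rbpjl binds an E-box together with a TTTCCC-type box. The 250 bases before the start were available from RefSeq (GRCm38.p6) for 8 of the 10 genes, without Try5 and Ctrc. CACCTG, searched on both strands, was present in 7 of the 8 and in 17.2% of 32851 promoters of that length. TTTCCC, on both strands, was present in 5 of the 8 and in 21.9% of all promoters. Both occurred in 4 of the 8 (Prss1, Prss2, Cela1 and Cela2a) and in 3.6% of all. TATAAA, on the gene's strand, was present in 4 of the 8 (Prss1, Prss2, Try4 and Cela1) and in 7.6% of all. The motifs do not overlap one another in these windows. The sequences below are shown for a protease that fell, for the 2 with the widest rise, and for 3 that were among the most abundant, with CACCTG and TTTCCC of either strand in capitals.
Prss1, chr6:41458680-41458929, forward strand: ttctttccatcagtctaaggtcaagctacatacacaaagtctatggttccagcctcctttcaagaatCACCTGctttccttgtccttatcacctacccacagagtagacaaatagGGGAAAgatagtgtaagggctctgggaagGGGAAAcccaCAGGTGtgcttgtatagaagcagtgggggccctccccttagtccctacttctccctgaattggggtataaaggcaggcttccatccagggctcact
Prss2, chr6:41521526-41521775, forward strand: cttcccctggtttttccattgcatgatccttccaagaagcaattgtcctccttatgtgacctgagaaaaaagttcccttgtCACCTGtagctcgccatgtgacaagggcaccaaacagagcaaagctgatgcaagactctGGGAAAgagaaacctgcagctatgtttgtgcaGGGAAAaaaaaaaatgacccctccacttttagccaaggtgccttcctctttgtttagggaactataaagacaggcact
Try4, chr6:41302022-41302271, forward strand: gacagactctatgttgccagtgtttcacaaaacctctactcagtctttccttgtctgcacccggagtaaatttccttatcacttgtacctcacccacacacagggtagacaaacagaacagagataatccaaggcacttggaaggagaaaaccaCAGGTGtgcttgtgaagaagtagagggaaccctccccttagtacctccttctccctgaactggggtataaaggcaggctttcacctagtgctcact
Ctrl, chr8:105933863-105934112, reverse strand: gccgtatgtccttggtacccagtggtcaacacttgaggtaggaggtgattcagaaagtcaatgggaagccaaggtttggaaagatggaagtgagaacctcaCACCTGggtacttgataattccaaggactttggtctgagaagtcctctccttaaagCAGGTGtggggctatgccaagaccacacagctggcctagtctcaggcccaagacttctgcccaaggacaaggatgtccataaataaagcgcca
Ctrb1, chr8:111691011-111691260, reverse strand: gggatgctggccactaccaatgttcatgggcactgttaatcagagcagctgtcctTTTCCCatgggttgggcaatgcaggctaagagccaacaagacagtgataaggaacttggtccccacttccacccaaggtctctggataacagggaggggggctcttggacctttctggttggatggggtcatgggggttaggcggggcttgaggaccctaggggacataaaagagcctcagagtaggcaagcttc
Cela1, chr15:100687921-100688170, reverse strand: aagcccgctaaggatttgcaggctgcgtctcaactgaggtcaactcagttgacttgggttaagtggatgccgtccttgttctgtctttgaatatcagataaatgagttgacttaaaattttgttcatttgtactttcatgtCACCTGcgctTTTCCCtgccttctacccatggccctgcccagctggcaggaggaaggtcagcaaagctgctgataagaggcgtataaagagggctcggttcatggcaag
In Prss1 and in Cela1 a CACCTG and a TTTCCC match started 10 bases apart, at 96 and 106 bases before the start in Prss1 and at 109 and 99 in Cela1. The nearest pair was 59 bases apart in Prss2. Prss1, which fell, and Prss2, which rose, each held both motifs, and Ctrb1, the most abundant gene in embryonic pancreas, held TTTCCC alone. A match is a description of letters and not a binding site.

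Among acinar transcription factors, 6 of 7 were called lower in islets and 1 higher (median log2 fold change -3.86). The share called lower over all genes tested was 36.6%. Rbpjl, a subunit of that complex, had 3603 ± 669 normalized counts in embryonic pancreas and 30.7 ± 14.7 in islets (log2 fold change -6.91, SE 0.29), and Nr0b2, a nuclear receptor, fell from 156 to 1.42. Of 9 genes of stimulus and secretion, 4 were called higher, 1 lower and 4 not called. The cholecystokinin receptor Cckar fell by 5.64 on the log2 scale and the muscarinic receptor Chrm3 rose by 3.36.

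Other trypsinogen-like genes also split. Of 10 in the table, 6 were tested, of which 2 were called higher, 3 lower and 1 not called. 2210010C04Rik, whose 50-base windows were all its own, had 151, 177 and 309 normalized counts in embryonic pancreas and 24888, 44773 and 19370.5 in islets, a log2 fold change of 7.10 (SE 0.33, limma-trend adjusted p = 1.82e-07). Gm10334, 96.8% identical to Prss1 in coding sequence, also fell, from 113, 118 and 177 to 3.30, 7.93 and 2.15 normalized counts. Its pooled reads were 448 and 13, a ratio of 30.5 with an exact interval of 17.6 to 57.7 that covers counting error only. Gm5771, the nearest copy of Prss1 and named here after its values were seen, fell from 90.1 to 25.3. These values carry the same doubt about read placement as those of Prss1, since 36.3% of windows were found in no other gene for Gm10334, 44.6% for Gm5771, 33.9% for Prss3 and 59.2% for Try10. Try10 was called lower (403 to 228, limma-trend adjusted p = 0.0466) and Gm2663 higher (31.7 to 114, adjusted p = 0.0318), with overlapping groups in both. Prss3 had 187 ± 41.1 and 234 ± 139 and was not called (limma-trend adjusted p = 0.715).

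Other serine proteases numbered 15, of which 12 were tested and 5 were called higher, 5 lower and 2 not called. Klk1, tissue kallikrein, went up from 7.90 ± 2.20 in embryonic pancreas to 10927 ± 6048 in islets, with a log2 fold change of 10.16, and Prss53 rose from 8.62 ± 4.30 to 1565 ± 245 (log2 fold change 7.42). Klk1 was highest in islet library 2 as the digestive proteases were, and Prss53 was highest in library 3. The Prss53 value is uncertain, because Gm21974 and Zfp646 overlap 84.0% of its exonic bases.

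Enteropeptidase itself, Tmprss15, was not tested for low counts: it had 17 reads over the embryonic libraries and 0 over the islet libraries, at least 5.01-fold lower against a floor of 3 reads over the group. The 3 lysosomal proteases that can process trypsinogen were each called higher. Ctsb, cathepsin B, which activates trypsinogen, rose from 7638 ± 876 to 32936 ± 2148 and Ctsl, cathepsin L, which inactivates it, from 4575 ± 568 to 21483 ± 3742. Ctsd, cathepsin D, rose from 3465 ± 366 to 6362 ± 363. The islet values were 34838, 33363 and 30607 for Ctsb, 20182, 25702 and 18566 for Ctsl and 5962, 6454 and 6669.6 for Ctsd, so that Ctsl alone of these 3 was highest in islet library 2. Other annotated genes overlap 12.8% of the exonic bases of Ctsb, 26.8% of those of Ctsl and 34.4% of those of Ctsd.

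Protease inhibitors fell for the most part, with 9 of 13 called lower, 1 higher and 3 not called. Of all genes tested, 36.6% were called lower. Spink1, the trypsin inhibitor that acinar cells store with their zymogens, was not called: its values were 2339.9, 3043 and 1859 in embryonic pancreas and 1108, 2566 and 936 in islets (log2 fold change -0.77, 95% interval -1.56 to 0.02, limma-trend adjusted p = 0.0724). The groups overlapped through islet library 2. Serpini2, pancpin, fell from 5768 ± 1837 to 243 ± 138. Among the alpha-1-antitrypsin genes, Serpina1b fell from 391 to 8.35, and Serpina1c and Serpina1e kept 3 reads each over the islet libraries (B430119L08Rik overlaps 31.5% of the exonic bases of Serpina1c). Their embryonic over islet ratios were 217 (exact interval 73.9 to 1053) and 247 (84.4 to 1202), with intervals that cover counting error only. How far reads could be placed among the alpha-1-antitrypsin genes was not examined. A2m, the macroglobulin, was at 0 in islets and at least 146.6-fold lower against the floor of 3 reads over the group. Spint1, which inhibits membrane serine proteases, rose from 2621 ± 488 to 6139 ± 337. Its relative Spint2 had 1053 ± 91.9 and 1186 ± 63.9, and Kazald1 172 ± 116 and 93.1 ± 13.2. Neither was called (limma-trend adjusted p = 0.138 and 0.147).

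Protease-activated receptors numbered 4, of which 2 were called lower, 1 higher and 1 not called. F2r, the thrombin receptor, fell from 3589.9 ± 278 to 350.3 ± 97.8. F2rl1, the receptor that trypsin cleaves, rose from 93.0 ± 23.4 to 426 ± 44.9 (log2 fold change 2.21, SE 0.20).

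The genes most like each protease over the 6 libraries were found by the root mean square difference of log2 values centred on each gene's own mean. Cpb1, a carboxypeptidase, was nearest to Prss2 (0.08) and Pla2g1b, a phospholipase, to Cela2a (0.10). Sycn, a granule protein, was nearest to Cela3b (0.08), Klk1 to Try4 (0.17), and the Reg family lectins Reg1 to Cela1 (0.21) and Reg3g to Try5 (0.32). Cpb1, Pla2g1b, Sycn and Klk1 are known as acinar products. Ctrl came nearest to Ppy, an islet hormone (0.30), and Ctrb1 to Lamb3 and Krt18 (0.18 and 0.19), so that likeness over 2 groups did not single out acinar genes. Prss1 was nearest to Fam198a (0.11) and E2f8 (0.19), and Ctrc to Ano3 (0.19). Within the family the closest pair was Cela2a with Cela3b (0.21), followed by Prss2 with Cela2a (0.22). The nearest family member to Prss1, Ctrc, was at 2.58.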

How the data were processed

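Reads of 3 e15.5 pancreas and 3 adult islet libraries (TruSeq, total RNA with RIN over 8) were processed by the authors on mm10; the submitters' processing notes name TopHat 1.3.2, Cufflinks 1.2.1, DESeq2 and CASAVA 1.8.2. The program that counted reads, as far as the sources used here go, is not given. The deposited values are normalized counts per gene, a signal equal to reads divided by one size factor per library. That there was one factor per library was inferred from the values themselves, as given below. The authors' deposited table also holds a fold ratio, a log2 fold change, a p-value with its adjusted p-value, and a score (the Wald statistic). Reads were recovered from the value of 1 read in each library: 100% of values were whole within 0.01 reads. Islet library 2 has a step of 0.992, close to 1, but its values were not rounded. Prss1, for example, had 1.983 normalized counts there for 2 reads. Rows that name no gene took 40.7% to 54.6% of reads and were left out.

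Groups were compared by limma-trend on log2(value + 1), with limma 3.58.1 in R 4.3.3, over genes reaching 10 normalized counts in 3 or more libraries. P-values were Benjamini-Hochberg adjusted and called below 0.05. Limma-trend was tested on simulated data in which few genes changed. Here 72.8% of genes tested were called, so that test does not give its error rate on these data. Fold changes on this scale understate low genes. Alternatives were other scalings, pseudocounts, filters and thresholds, limma-voom, a replicate block, leaving out each library, and edgeR 4.0.16 and DESeq2 1.42.0 on the recovered reads, which called 16072 and 15413 genes. An exact permutation test of 3 against 3 cannot go below 0.1 and was not used. Exonic lengths, transcripts and coordinates came from GENCODE M21, promoters from RefSeq.

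The proteases and gene lists were chosen with earlier results of these data known. Named genes were the 10 proteases, trypsinogen-like, activation, inhibitor and receptor genes with at least 100 normalized counts on average in 1 group, the 2 largest called changes of other lists, and the 2 tested genes most like each protease.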

Additional observations from a re-analysis of the deposited data

How the results depend on the processing

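Under 18 alternatives the 10 proteases gave 180 values, of which 178 kept their direction and their side of the threshold, 2 lost the call and 0 changed direction. Both lost calls were those of Ctrc, so that 1 protease was called lower at an adjusted p below 0.01 and without embryonic library 1. Leaving out each library in turn gave 1 to 2 called lower and 8 called higher. The summed level was 0.0873% to 0.0958% of assigned reads in embryonic pancreas and 0.572% to 0.969% in islets with a library left out, the lowest islet value being without library 2. With the 20 most abundant genes of each group out of the denominator it was 0.122% and 1.26%. Relative to the granule proteins the summed proteases were at 352.8 in embryonic pancreas and 11.4 in islets, which turned the direction because that reference rose more than they did. In embryonic pancreas that reference rests on few reads, as given above. Whether same-numbered libraries belong together was not labelled. Over all genes tested, deviations of same-numbered libraries correlated at 0.037, 0.077 and 0.005. Differently numbered libraries gave -0.076 to 0.048. Being taken over all genes, these correlations cannot decide whether the samples were paired. With a replicate block 8 proteases were called higher and 2 lower, as without it, and 15612 genes were called in place of 15770. The block lowered the limma-trend adjusted p of each of the 10 proteases, from 0.00207 to 7.33e-05 for Ctrb1. Scaling without the 20 most abundant genes moved the median of all genes to -0.26 on the log2 scale and the calls from 7845 higher and 7925 lower to 6636 and 9506. Depth limits Prss1 in islets, at 13 reads.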
